A study of Mus musculus with 9 samples.

Results

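Tumor cells of the mouse ovarian line BeCon were compared between mice treated with YKL-05-099 and mice treated with vehicle, over the genes that the tumor cells express when they grow alone. The unit is FPKM, the fragments per kilobase of a gene scaled to the size of the library, which is a level per length. Genes were chosen by their FPKM, which had to reach 1 in BeCon cells from culture and in 4 or more of the 8 libraries from mice. This left 10913 genes of the 48230 in the table and of the 11788 that met the mouse condition. The rule used these levels and not the difference between the groups. The animals of both groups were B6 mice that carried BeCon cells, and the cells were sorted from their ascites as viable cells without CD45, the antigen common to leukocytes, and with MHC class I on the surface. The vehicle group had 4 libraries, the YKL-05-099 group had 4, and the cultured cells had 1, which served to choose the genes and has no replicate. The agent is the only stated difference between the mouse groups. Not given in the sources used here are the dose, schedule, age and sex and the way the tumor line was made. Whether 1 animal or several gave a library is not stated either, and the p-values speak of the spread among libraries, which may be technical. The library names of the groups carry different prefixes, so a cage or batch behind them cannot be told apart from treatment.

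Salt-inducible kinases are serine and threonine kinases of the AMPK family that are switched on by LKB1 and switched off by protein kinase A. They phosphorylate the CRTC coactivators of CREB and the class IIa histone deacetylases, which keeps both in the cytoplasm. When the kinases are blocked, CRTC proteins enter the nucleus and genes with cAMP response elements are transcribed, whereas class IIa deacetylases restrain MEF2. YKL-05-099 is a synthetic compound that inhibits these kinases.

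The libraries held roughly 23000000 to 35000000 fragments each, read from the size of the lowest values. They were alike within groups, with a correlation of log2 levels of 0.985 to 0.993 among vehicle libraries, 0.988 to 0.992 among YKL-05-099 libraries and 0.96 to 0.979 between them. The label of tumor cells was checked against marker genes. Mesothelial markers, which BeCon cells carried strongly, summed to 1938 to 2004 FPKM in the vehicle libraries, 1927 to 1969 in the YKL-05-099 libraries and 1140.4 in culture. The ovarian and Mullerian epithelial markers summed to 1173 to 1244 FPKM in the vehicle libraries, 1126 to 1187 in the YKL-05-099 libraries and 1052 in culture. For both lists the sums overlapped between the groups, and Wt1 and Krt19 stand in both lists. Single markers were apart in both directions. Cldn15, Krt18, Upk3b and Muc16 lay higher in every YKL-05-099 library than in every vehicle library, and Krt19, Wt1, Emx2, Lrrn4 and Epcam lay lower. Of the 13 ovarian and Mullerian markers, Epcam, Sox17 and Cldn7 were listed at 0 in culture, Cldn7 was at 0 in every library, and Pax8 did not exceed 0.202 FPKM. The label therefore rests on Wt1, keratins and mesothelial genes more than on Mullerian ones.

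Markers of other cells were present and not equal between the groups. The 15 pan-leukocyte markers summed to 37.9 to 71.4 FPKM in the vehicle libraries, 20.2 to 28.1 in the YKL-05-099 libraries and 14.9 in culture, with 4 of them at 1 or more in culture. Ptprc, which encodes CD45, was listed at 0 in culture and reached 0.772 FPKM among vehicle libraries and 0.276 among YKL-05-099 libraries. The 16 macrophage markers summed to 248 to 567 FPKM in the vehicle libraries, 31.3 to 109.9 in the YKL-05-099 libraries and 12.1 in culture, with 10 of them at 0 in culture. The 7 erythroid markers summed to 244 to 1487 FPKM in the vehicle libraries, 1.45 to 92.8 in the YKL-05-099 libraries and 0.188 in culture. The 10 fibroblast markers summed to 656 to 708 FPKM in the vehicle libraries, 556 to 635 in the YKL-05-099 libraries and 338 in culture, with 5 of them at 1 or more in culture. Most of the sum was Dcn, which read 243 FPKM in culture, whereas Lum, Fap, Postn and Pdgfrb did not exceed 0.4814 FPKM in any library. Of the 7 dendritic cell markers Zbtb46 alone was above 0 in culture, at 6.05 FPKM. These 2 lists therefore hold genes that BeCon cells express themselves. In all, 8 of 14 marker lists were lower in every YKL-05-099 library than in every vehicle library, with an exact two-sided permutation p of 0.02857 for each, the smallest that 4 against 4 libraries allow (0.04444 adjusted over the lists). These differences run along with every change described here, and their part in it was not tested. As a measured companion, the count for a gene list is followed by the count from a fit whose covariate is the pan-leukocyte mean log2 level of each library, and by the list's median log2 fold change with that covariate against the median without it. That covariate separates the groups completely. The fit called 4.14% of all genes tested and raised the median standard error of the members from 0.067 to 0.133 on the log2 scale, so calls can be lost without a smaller change. Fitted changes became smaller too for some genes: of the 215 called genes named here, 46 had a change smaller by more than 1.5 times with the covariate and 4 one larger by as much. In bulk RNA, fewer cells of a type and less RNA per cell cannot be told apart.

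**Figure D1:**
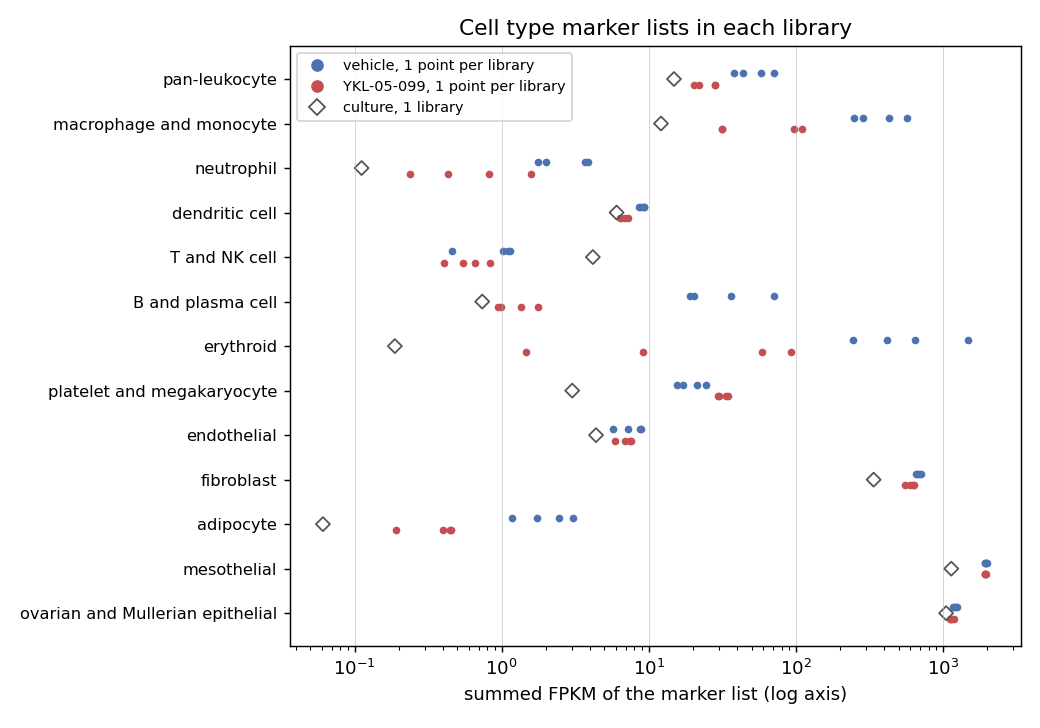
Summed FPKM of 13 marker lists in the cultured library, the 4 vehicle libraries and the 4 YKL-05-099 libraries, on a log axis, 1 point a library. The groups overlap for the mesothelial and ovarian lists, whereas the leukocyte, macrophage and erythroid lists lie lower in every YKL-05-099 library.

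With limma on log2(FPKM + 1), 3124 of the 10913 genes were higher in the YKL-05-099 libraries at an adjusted p under 0.05 and 1594 were lower, which is 28.6% and 14.6%. Among all 11788 genes tested, most of which are members, the shares were 28.0% and 15.1%, together 43.2%. Among the 875 tested genes that are not members 20.6% were higher and 21.8% lower. List counts below are to be read beside these shares of all genes tested. The median log2 fold change over the members was 0.056, and the median size of a called change was 0.319, so most called changes were small. A change of at least 1 log2 unit was called for 96 of the 10913 members upward and 57 downward. Over all 11788 genes tested the counts were 127 and 125, or 1.08% and 1.06%. The 875 tested genes that are not members held 31 and 68 of these, so large falls were less frequent among members. The groups did not overlap for 4373 members, or 40.1%, where the share over all genes tested was 40.0%. The median SD between replicates was 0.095 log2 units among vehicle and 0.08 among YKL-05-099 libraries. Median-of-ratios scaling shifted all values by about the median change and turned the split of calls to 2333 higher and 2252 lower (50.9% higher, against 66.2% as deposited), so the excess of small rises depends on the scale of the libraries.

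Among members with a mean of at least 100 FPKM, 171 of 792 were higher and 151 lower, whereas below 5 FPKM 518 of 1825 were higher and 180 lower. At the edge of the rule, 25 of the 112 members with 1 to 1.2 FPKM in culture were higher and 15 lower, and just outside it, among the 129 genes with 0.8 to 1 FPKM, 32 were higher and 16 lower. Members that stayed under 1 in every vehicle library numbered 16 and all were called higher, and 7 under 1 in every YKL-05-099 library were all called lower: they passed the mouse condition through 1 group alone and had to differ, so they support nothing. At least 1 FPKM in all 8 mouse libraries was reached by 10632 members.

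**Figure D2:**
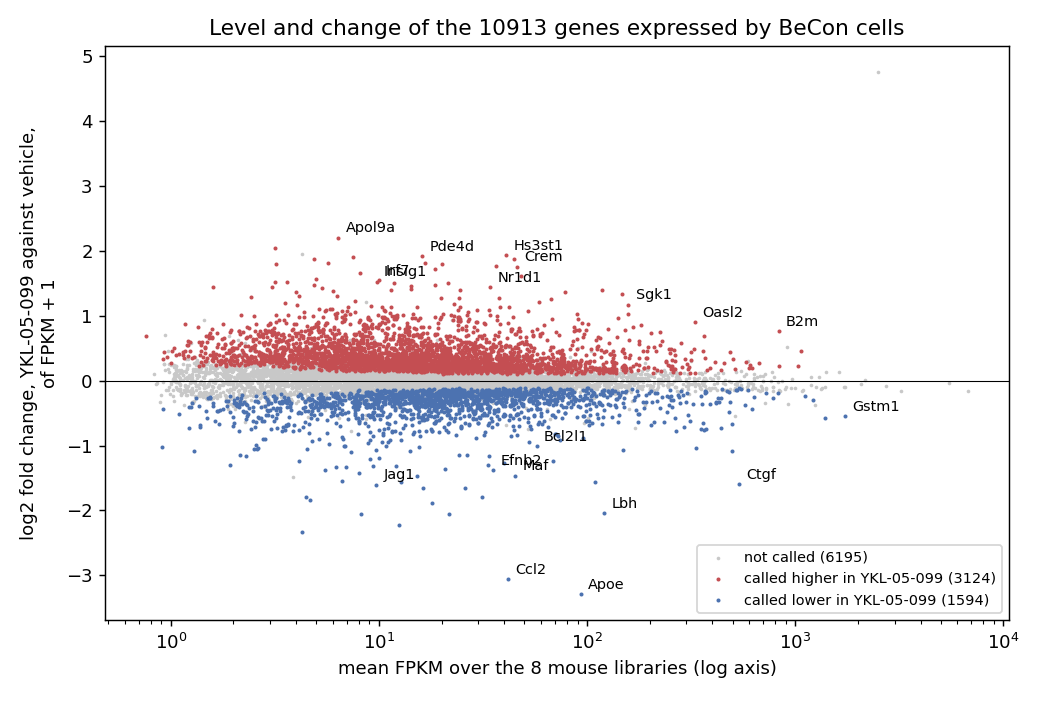
Log2 fold change (YKL-05-099 against vehicle, on the log2(FPKM + 1) scale) against mean FPKM over the 8 mouse libraries on a log axis, 1 point a member, coloured by limma call. Called genes lie on both sides at every level, and most lie within 1 log2 unit of 0.

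The largest rise belonged to Apol9a, an interferon-inducible apolipoprotein L gene at chromosome 15, 77403789 to 77411080. It read 1.65, 1.73, 1.66 and 1.501 FPKM in the vehicle libraries and 10.5, 10.9, 10.97 and 12.1 FPKM in the YKL-05-099 libraries, beside 1.77 in culture (log2 fold change 2.20, SE 0.06, adjusted p = 1.2e-07). Each treated library stood well above every vehicle library, and the vehicle libraries lay at the level of cultured cells. Its neighbour and close copy Apol9b read 1.73 to 2.17 against 8.87 to 10.2 FPKM (log2 fold change 1.82), and reads of so similar a pair may be split uncertainly. Hs3st1, the heparan sulfate 3-O-sulfotransferase that makes antithrombin-binding sites, at chromosome 5, 39613935 to 39755475, went from 15.1, 16.99, 15.4 and 17.98 FPKM to 67.1, 65.4, 68.7 and 59.9 FPKM (log2 fold change 1.93, SE 0.06, adjusted p = 2.1e-07). The phosphodiesterase gene Pde4d, which breaks down cAMP, read 6.45, 5.69, 5.16 and 7.67 FPKM with vehicle and 25.7, 26.5, 25.5 and 26.8 FPKM with YKL-05-099 (log2 fold change 1.92, SE 0.09, adjusted p = 2.1e-06). Both groups were tight for these genes and did not come near each other. Sfrp4, a secreted WNT antagonist, read 2.47, 2.73, 2.32 and 2.71 against 9.92, 13.2, 14.7 and 11.7 FPKM (log2 fold change 1.90, SE 0.11, adjusted p = 3.1e-06). Gpr146, a receptor studied for its effect on blood cholesterol, read 17.9, 16.9, 15.9 and 23.7 against 70.96, 70.9, 74.6 and 65.1 FPKM (log2 fold change 1.88, SE 0.11, adjusted p = 3.1e-06). The adaptor gene Shc2 read 1.43, 1.37, 1.68 and 1.58 against 7.34, 8.16, 10.1 and 7.42 FPKM (log2 fold change 1.87, SE 0.10, adjusted p = 2.3e-06). In all of these the lowest treated library exceeded the highest vehicle library.

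Others among the 20 largest rises were Il33, an alarmin cytokine (1.82), the interferon-inducible genes Ifi44 (1.80), Ifi27l2a (1.76), Irf7 (1.55) and Bst2 (1.51), Tmem140 (1.80) and the CREB-family factor Crem (1.75), all on the log2 scale. They also included the integrin gene Itga2b (1.73), Rgcc (1.66), Rab11fip1 (1.61), the calcium sensor Ncald (1.57), the growth factor Fgf5 (1.53) and the sterol sensor partner Insig1 (1.53). Il33 was the least even of them, at 5.41, 5.65, 5.097 and 12.3 FPKM with vehicle and 21.2, 24.9, 30.8 and 28.3 FPKM with YKL-05-099, still without overlap. In level rather than ratio, the largest rises were those of B2m (619 ± 79.3 to 1043 ± 51.1 FPKM, mean ± SD, n = 4 each), Crip1 (901 ± 107 to 1229.7 ± 69.9) and Oasl2 (231 ± 23.6 to 429.6 ± 15.9).

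The largest fall was that of Apoe, the apolipoprotein E gene, which macrophages express strongly and which is itself on the macrophage marker list. It read 197, 247, 142 and 93.7 FPKM with vehicle, 10.5, 20.3, 27.5 and 9.44 FPKM with YKL-05-099 and 1.87 in culture (log2 fold change -3.29, SE 0.36, adjusted p = 0.00012), and its log2 fold change was -1.41 beside the leukocyte covariate. By difference in FPKM, though not by ratio in every library, the treated libraries lay nearer to the cultured cells than to the vehicle libraries. Ccl2 and Ccl7, chemokines that draw monocytes, read 93.8, 90.6, 56.9 and 60.8 against 7.53, 8.52, 7.67 and 8.22 FPKM and 9.72, 8.81, 5.74 and 6.89 against 0.6503, 1.18, 0.853 and 0.318 FPKM (log2 fold changes -3.06 and -2.33). With the covariate both remained called (adjusted p = 0.0022 and 0.012). Lbh, a transcription cofactor gene, read 192, 228, 248 and 117 against 36.4, 50.7, 50.4 and 44.5 FPKM (log2 fold change -2.04, SE 0.21, adjusted p = 8.1e-05). The groups were apart, though vehicle libraries spread widely. The effector gene Cdc42ep3 read 22.1, 28.4, 28.5 and 21.7 against 7.83, 7.17, 7.51 and 6.56 FPKM (log2 fold change -1.66, SE 0.10, adjusted p = 4.3e-06). Maf, a basic leucine zipper factor, fell with less spread, from 62.4, 68.7, 77.1 and 59.7 FPKM to 23.9, 22.9, 23.9 and 23.5 FPKM (log2 fold change -1.46, SE 0.07, adjusted p = 2.1e-06).

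Txnrd3 was called lower with overlapping groups, at 18.6, 47.6, 68.2 and 9.44 FPKM with vehicle and 6.11, 15.7, 5.21 and 2.09 FPKM with YKL-05-099. The call was lost without vehicle replicate 2 or 3 or YKL-05-099 replicate 3 or 4 (adjusted p from 0.0542 to 0.0684). Further large falls were Angptl7 (-2.05), the calcification inhibitor Mgp (-1.88), Dusp4 (-1.84), the chemokine Cxcl10 (-1.80), Sprr1a (-1.79), the protease inhibitor Slpi (-1.65), the Notch ligand Jag1 (-1.60), the YAP target Ctgf (-1.59), Pdgfb (-1.57), the TWEAK receptor Tnfrsf12a (-1.56), Ndufa4l2 (-1.55) and Myoz2 (-1.47), on the log2 scale. By level, the largest falls were those of the glutathione transferase Gstm1 (2071 ± 404 to 1398 ± 117 FPKM, mean ± SD, n = 4 each), the histone gene H3f3b (1647 ± 95.7 to 1118 ± 151), Ctgf (791 ± 124 to 284 ± 113) and the syndecan gene Sdc4 (676 ± 63.6 to 322 ± 49.5). Of these 4 the groups overlapped for Gstm1 alone.

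**Figure D3:**
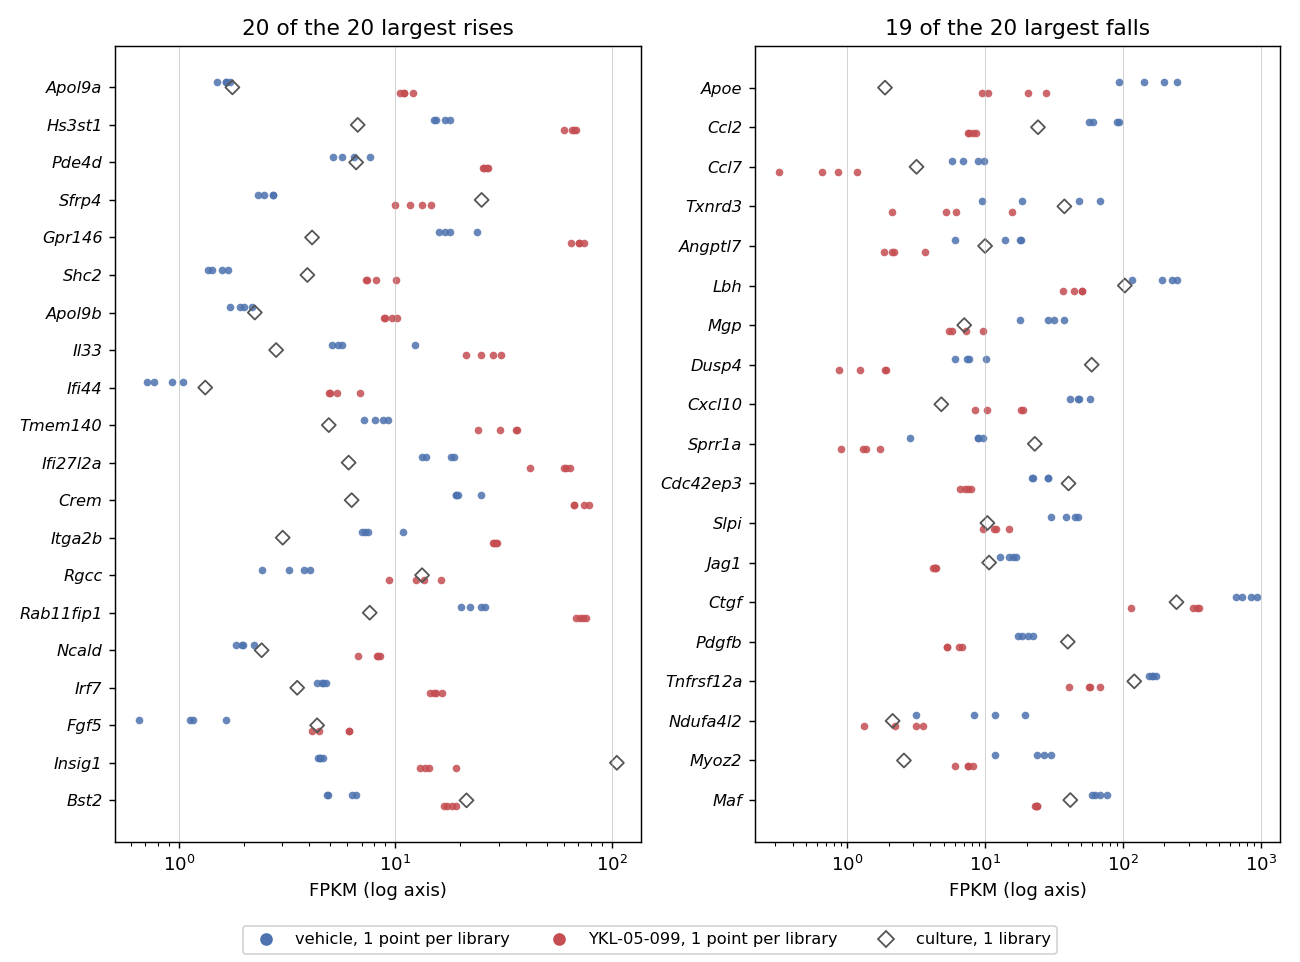
FPKM on a log axis of the 20 members with the largest called rises and 19 of the 20 with the largest called falls, 1 point for each of the 4 vehicle and 4 YKL-05-099 libraries, with the cultured library as a diamond. For nearly all genes the groups are apart, and Txnrd3 and Ndufa4l2 are the 2 whose groups overlap.

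Promoters were read for members that rose, since interferon-stimulated and cAMP-responsive genes carry short binding sites there. RefSeq promoters on GRCm38.p6, each 300 bases from 250 before to 50 after a gene's start, were matched by symbol for 8377 of 10911 member symbols. The promoters of 4 interferon-linked genes that rose are shown first, because each holds the interferon-stimulated response element GAAANNGAA on 1 of its strands, then those of 3 genes with the full cAMP response element TGACGTCA. They run 5′ to 3′ on the gene's strand, and capitals mark the match. The regions are chr15:77410985-77411284 (minus strand) for Apol9a, chr8:71537423-71537722 (minus) for Bst2, chr4:156200769-156201068 (minus) for Isg15, chr2:122147437-122147736 (plus) for B2m, chr11:59809990-59810289 (minus) for Flcn, chr3:135212313-135212612 (plus) for Cenpe and chr11:87404457-87404756 (minus) for Rad51c.
Apol9a: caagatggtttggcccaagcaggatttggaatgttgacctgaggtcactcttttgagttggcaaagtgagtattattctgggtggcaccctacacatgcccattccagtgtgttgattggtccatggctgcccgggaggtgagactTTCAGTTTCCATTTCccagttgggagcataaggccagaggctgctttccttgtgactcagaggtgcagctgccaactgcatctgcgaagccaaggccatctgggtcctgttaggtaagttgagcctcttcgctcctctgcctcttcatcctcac
Bst2: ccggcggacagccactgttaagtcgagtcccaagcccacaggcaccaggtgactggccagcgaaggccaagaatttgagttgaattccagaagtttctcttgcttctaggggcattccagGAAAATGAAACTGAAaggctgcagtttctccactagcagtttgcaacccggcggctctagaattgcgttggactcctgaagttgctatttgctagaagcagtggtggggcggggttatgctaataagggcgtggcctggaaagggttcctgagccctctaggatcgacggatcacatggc
Isg15: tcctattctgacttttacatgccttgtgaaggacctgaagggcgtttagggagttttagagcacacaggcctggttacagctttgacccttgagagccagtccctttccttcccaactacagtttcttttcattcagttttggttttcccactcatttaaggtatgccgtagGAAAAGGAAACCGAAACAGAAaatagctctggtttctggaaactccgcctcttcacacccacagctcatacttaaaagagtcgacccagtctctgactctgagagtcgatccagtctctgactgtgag
B2m: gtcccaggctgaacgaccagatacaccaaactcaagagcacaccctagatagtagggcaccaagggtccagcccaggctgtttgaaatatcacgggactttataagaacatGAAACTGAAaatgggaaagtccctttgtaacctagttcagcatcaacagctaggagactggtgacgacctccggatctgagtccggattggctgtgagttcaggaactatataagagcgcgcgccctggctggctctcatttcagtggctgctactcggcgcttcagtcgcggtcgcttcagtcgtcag
Flcn: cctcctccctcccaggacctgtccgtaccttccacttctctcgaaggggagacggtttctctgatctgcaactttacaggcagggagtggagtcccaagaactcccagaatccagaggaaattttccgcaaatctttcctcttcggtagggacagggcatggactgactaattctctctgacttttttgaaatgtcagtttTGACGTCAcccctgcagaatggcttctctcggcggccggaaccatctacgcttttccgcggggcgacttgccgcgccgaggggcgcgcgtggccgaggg
Cenpe: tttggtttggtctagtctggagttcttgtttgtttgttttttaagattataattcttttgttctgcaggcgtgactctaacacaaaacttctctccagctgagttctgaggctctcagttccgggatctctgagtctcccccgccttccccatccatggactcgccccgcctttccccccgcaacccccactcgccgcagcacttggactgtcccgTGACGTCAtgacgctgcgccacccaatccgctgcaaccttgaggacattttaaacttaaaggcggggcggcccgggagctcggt
Rad51c: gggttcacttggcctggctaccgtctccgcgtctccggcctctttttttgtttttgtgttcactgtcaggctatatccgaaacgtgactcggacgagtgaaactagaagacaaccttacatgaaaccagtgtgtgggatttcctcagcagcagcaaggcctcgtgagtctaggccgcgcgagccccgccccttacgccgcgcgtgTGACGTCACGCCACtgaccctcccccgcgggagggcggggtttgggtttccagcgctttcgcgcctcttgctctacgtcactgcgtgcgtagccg
In Apol9a, Bst2 and Isg15 overlapping matches form a run of repeats, and the capitals of Rad51c cover a cAMP response element that overlaps the sterol regulatory element TCACNCCAC. A match is a description of letters and does not show that a factor binds.

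Over both strands, GAAANNGAA stood in 35.3% of the 34 promoters of the interferon-stimulated list and in 8.56% of all 32851 promoters of the table. It stood in 7.09% of promoters of members called higher, 7.01% of those called lower and 6.6% of those not called. TGACGTCA stood in 3.8% of promoters of members called higher, 2.29% of those called lower, 3.22% of those not called and 1.79% of all promoters. The shorter site TGACG, which every full site also holds, stood in 34.8%, 27.1%, 32.5% and 20.8% of the same sets. CCAAT, the NF-Y letters, stood in 42.2%, 32.9%, 37.2% and 37.4%. TTCCCGCC, the E2F letters, stood in 5.0%, 2.87%, 4.08% and 2.19%. In the mitosis list 36 of 50 promoters held CCAAT and 36 held TTTGAA, the letters of the cell cycle homology region. Both stood in 31 of them, and TTTGAA stood in 17.9% of all promoters. TCACNCCAC stood in 1 of 30 promoters of the cholesterol list (1.24% of all promoters). In the CREB-responsive list 2 of 21 promoters held TGACGTCA (9.52%, beside 1.79% of all), and 57.1% held TGACG (20.8% of all). The E-box CACGTG stood in 31.7% of 41 promoters of the lysosome list and 7.15% of all. The AP-1 letters TGANTCA stood in 4.75% of promoters of members called higher, 6.11% of those called lower, 4.59% of those not called and 7.81% of all. For the TEAD letters GGAATG these shares were 11.5%, 12.7%, 11.9% and 14.7%. For the NF-kappaB letters GGGANTTTC they were 1.08%, 0.764%, 0.752% and 1.11%. For the NR4A letters AAAGGTCA they were 0.601%, 0.892%, 1.02% and 1.51%. No test was made on any of these shares.

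Of 18 members that encode the salt-inducible kinases, their relatives and the LKB1 complex, 7 rose and 2 fell (with the covariate 1 higher and 2 lower, median -0.01 against -0.01). The shares are 38.9% and 11.1%, beside 28.0% and 15.1% of all genes tested. Sik1, itself a CREB-driven gene, read 49.03, 39.4, 32.8 and 35.8 FPKM with vehicle and 96.8, 102, 99.5 and 82.1 FPKM with YKL-05-099 (log2 fold change 1.27, SE 0.11, adjusted p = 4.7e-05). Sik3 read 20.1 to 24.98 against 27.9 to 28.8 FPKM (log2 fold change 0.31, adjusted p = 0.0032), and Sik2 differed by 0.06 (-0.12 to 0.24, 95% interval), which is not called. Stk11, the LKB1 gene, rose from 41.7 to 49.4 to 60.1 to 62.02 FPKM and its scaffold partner Cab39l from 19.7 to 21.8 to 24.2 to 24.9. Nuak1, a related kinase that acts on myosin phosphatase, was the clear fall, from 5.98, 6.25, 7.29 and 5.28 to 2.14, 2.16, 2.23 and 1.71 FPKM (log2 fold change -1.23, SE 0.10, adjusted p = 2.1e-05).

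CREB-responsive genes rose more often than they fell, 10 and 3 of 23 members, with a median log2 fold change of 0.27 (with the covariate 7 higher and 2 lower, median 0.56 against 0.27). Rises were also more frequent than falls among all genes tested, at 28.0% and 15.1%. In this list the rises are 43.5%, and the share of falls lies below that of all genes tested. Beside the genes above, the rises included the factor Klf4 (0.78), Dusp10 (1.00) and Pck2 (0.57). The nuclear receptor Nr4a1 rose from 128, 128, 102 and 149 to 252, 271, 278 and 146 FPKM (adjusted p = 0.0058). The groups overlapped for Nr4a1 and Klf4. The EGF family ligand Ereg, at 0.352 to 0.474 FPKM with vehicle and 2.49 to 3.43 FPKM with YKL-05-099, met the mouse condition through the treated group alone and had to differ. Without it 9 of 22 members rose and 3 fell. Those that fell were Dusp4, Id1 and the antiproliferative gene Btg2, which read 450.1, 451, 454 and 484 FPKM with vehicle and 335, 335, 317 and 162 FPKM with YKL-05-099. The last treated library carried much of that fall, since the log2 fold change of -0.74 became -0.48 without it. Of 18 members of the CREB and CRTC coactivator machinery 4 rose and 1 fell (with the covariate 1 higher and 1 lower, median -0.024 against 0.015). The shares are 22.2% and 5.56%, below the 28.0% and 15.1% of all genes tested. Prkar2b, a regulatory subunit of protein kinase A, rose from 14.5, 11.9, 9.66 and 16.6 to 43.05, 36.03, 31.4 and 32.9 FPKM (log2 fold change 1.40, SE 0.15, adjusted p = 0.00010). The catalytic subunit gene Prkaca rose slightly (0.25) and Prkacb fell slightly (-0.22). The stimulatory G protein gene Gnas differed by 0.01 (-0.08 to 0.10). Of the 6 cAMP phosphodiesterase members 4 rose (with the covariate 2 higher and 0 lower, median 0.42 against 0.63), and Pde1a and Pde7a were not called. Beside Pde4d, Pde4b rose from 22.4, 19.3, 22.1 and 20.5 to 46.7, 44.8, 47.998 and 44.98 FPKM. Pde3b rose from 6.64, 7.301, 6.91 and 10.5 to 14.2, 16.96, 16.6 and 18.4 FPKM. Pde4a rose by 0.26 only, a call lost without YKL-05-099 replicate 2 or 4 (adjusted p = 0.0515 and 0.0596). Of the class IIa deacetylases, Hdac7 fell (36.3 to 45.2 to 25.4 to 29.3 FPKM, log2 fold change -0.53), and Hdac4 and Hdac5 were not called (0.25 and 0.07). Mef2a fell by 0.59 on the log2 scale and Mef2d rose by 0.33. Of 11 members listed as class IIa deacetylases, MEF2 factors and their targets, 3 rose and 2 fell (with the covariate 0 higher and 1 lower, median 0.26 against 0.07). The shares are 27.3% and 18.2%, near the 28.0% and 15.1% of all genes tested.

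**Figure D4:**
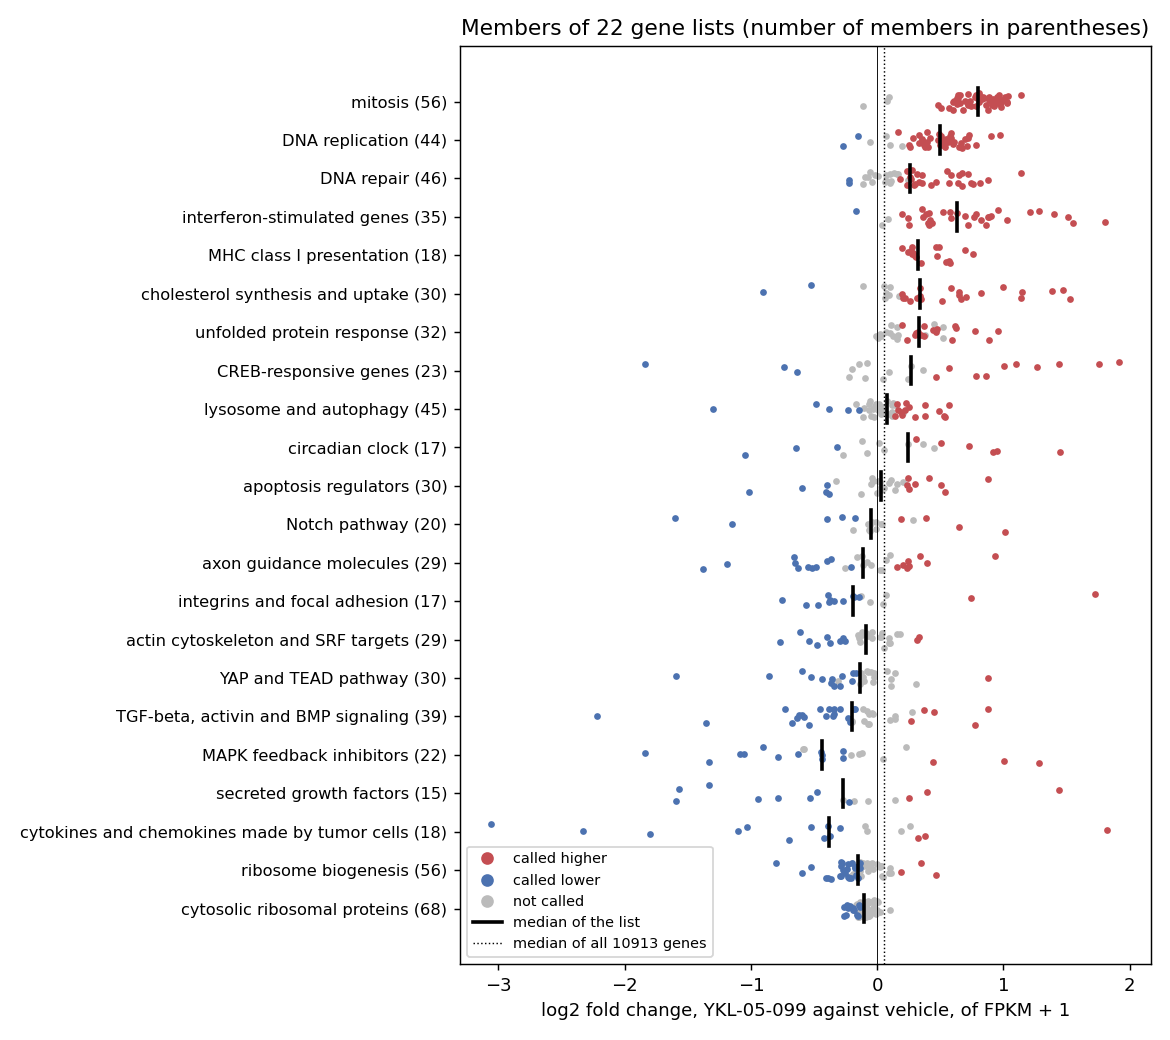
Log2 fold change of every member of 22 gene lists, 1 point a gene, coloured by limma call. The mitosis, interferon and MHC class I lists lie almost wholly above 0, and the YAP, TGF-beta and MAPK feedback lists lie mostly below it.

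Most members of the interferon-stimulated list moved together. Cxcl10, an interferon-inducible chemokine gene that is not on this list, fell without overlap (log2 fold change -1.80). Of 35 members 32 rose and 1 fell, and the groups were apart for all 32 that rose. Of these, 1 met the mouse condition through the treated group alone, and without it 31 of 34 rose. The median log2 fold change was 0.63 over the list and 0.054 over all genes tested (with the covariate 14 higher and 0 lower, median 0.61 against 0.63). The interferon regulatory factors Irf7 and Irf9, which turn on the other genes, read 4.57, 4.79, 4.64 and 4.34 against 14.5, 15.5, 16.4 and 15.1 FPKM and 9.73, 8.76, 9.28 and 9.401 against 18.7, 20.5, 20.4 and 20.4 FPKM. Stat2, which joins Irf9 in the interferon-induced complex, rose from 4.14, 3.21, 4.23 and 4.04 to 7.84, 8.302, 9.902 and 8.1 FPKM (log2 fold change 0.96, SE 0.09, adjusted p = 6.1e-05). Among effectors, the ubiquitin-like modifier Isg15 read 6.26, 8.22, 6.77 and 8.12 against 13.3, 12.8, 12.96 and 14.1 FPKM (log2 fold change 0.78, SE 0.08, adjusted p = 9.8e-05). Bst2, which tethers virions to the membrane, read 4.905, 6.55, 6.33 and 4.85 against 17.4, 19.0, 18.2 and 16.8 FPKM (log2 fold change 1.51, SE 0.09, adjusted p = 5.2e-06). Xaf1 rose by 1.28 and Lgals3bp by 1.21. Ifit2 was not called (0.03), and Samhd1 fell by 0.17, a call that was lost without vehicle replicate 1, 2 or 3 or YKL-05-099 replicate 2, 3 or 4 (adjusted p from 0.0503 to 0.0861). Oasl2, which inhibits viral RNA synthesis, was the most abundant of those named here, at 4.85 FPKM in culture, 211, 216, 232 and 264 with vehicle and 407, 443, 438 and 431 with YKL-05-099.

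Cytosolic sensors followed in part: 10 of 20 members of the RNA and DNA sensing list rose and none fell (with the covariate 1 higher and 0 lower, median 0.13 against 0.18). The RNA helicases Ddx58, which encodes RIG-I, and Ifih1, which encodes MDA5, rose by 0.41 and 0.42, and Dhx58, their regulator, from 1.78, 1.32, 1.44 and 1.499 to 3.14, 4.01, 3.43 and 3.89 FPKM. The editing enzyme Adar rose by 0.36 and the kinase Tbk1 by 0.28. For MHC class I presentation 17 of 18 members rose and none fell (with the covariate 1 higher and 0 lower, median 0.29 against 0.33). The groups were apart for 9 of the 18, fewer than were called but a larger share than the 40.0% of all genes tested. Leaving out a single library moved the count of rises to between 12 and 18. B2m, the light chain, read 609.6, 634, 520.5 and 713 FPKM with vehicle and 1118, 1005, 1029.6 and 1019 FPKM with YKL-05-099 (log2 fold change 0.76, SE 0.09, adjusted p = 0.00017). The peptide transporter Tap1 read 10.6, 11.7, 10.2 and 11.2 against 20.4, 17.1, 17.4 and 18.7 FPKM (log2 fold change 0.70, SE 0.07, adjusted p = 5.4e-05). H2-M3 was not called (0.27). Surface MHC class I was part of the sort in both groups, so these genes describe cells already selected for it.

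Genes of cell division rose with few exceptions. In the mitosis list 53 of 56 members rose and none fell, with a median log2 fold change of 0.80 and no overlap between the groups for any of the 53 (with the covariate 6 higher and 0 lower, median 0.45 against 0.80). Bub3, Cdc25a and Pttg1 were not called (0.08, -0.11 and 0.09). Aurkb, the kinase of the chromosomal passenger complex, read 8.97, 8.38, 7.999 and 10.998 FPKM with vehicle and 22.9, 19.3, 17.98 and 24.6 FPKM with YKL-05-099, both below its 70.8 FPKM in culture (log2 fold change 1.14, SE 0.11, adjusted p = 6.9e-05). Ccna2, the S and G2 phase cyclin, read 17.5, 14.7, 16.7 and 19.8 against 40.1, 31.1, 32.5 and 39.1 FPKM (log2 fold change 1.01, SE 0.10, adjusted p = 7.6e-05). Top2a, which untangles sister chromatids, read 28.9, 24.6, 27.9 and 36.2 against 68.03, 53.9, 50.5 and 62.7 FPKM (log2 fold change 0.98, SE 0.12, adjusted p = 0.00022). Treated libraries lay between the vehicle libraries and culture for all 3 genes. The condensin subunit Ncapd2 rose by 0.91 and the proliferation marker Mki67 by 0.86.

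DNA replication genes rose in 38 of 44 members and fell in 2 (with the covariate 3 higher and 0 lower, median 0.30 against 0.49). The primase subunit Prim1 rose from 10.4, 10.2, 10.6 and 10.5 to 17.7, 16.2, 15.9 and 15.6 FPKM (log2 fold change 0.60, SE 0.05, adjusted p = 3.2e-05). Thymidylate synthase, Tyms, rose from 16.6, 17.1, 15.9 and 19.7 to 34.6, 28.1, 27.5 and 31.95 FPKM (log2 fold change 0.78, SE 0.09, adjusted p = 0.00011). The clamp loader subunit Rfc2 rose by 0.54. The members that fell were Rrm1, the large subunit of ribonucleotide reductase (70.7, 69.8, 71.1 and 60.7 to 55.5, 56.1, 52.9 and 60.4 FPKM), and Orc2. Orc2 fell by 0.15, a call lost without vehicle replicate 2 or 3 or YKL-05-099 replicate 1, 2 or 3 (adjusted p from 0.0598 to 0.0909). Of 46 DNA repair members 27 rose and 2 fell (with the covariate 1 higher and 0 lower, median 0.21 against 0.26). Rad51c, a gene of homologous recombination, rose from 3.44, 3.28, 4.24 and 5.38 to 10.9, 9.78, 9.61 and 9.93 FPKM (log2 fold change 1.14, SE 0.12, adjusted p = 8.4e-05). The checkpoint kinase genes Chek1 and Chek2 rose by 0.75 and 0.81, the helicase Brip1 by 0.64 and Rad52 by 0.55. Xrcc5, which encodes the Ku80 end-joining protein, and Mre11a fell by 0.23 and 0.22. Among G1 cyclins and CDK inhibitors 12 of 26 rose and 5 fell (with the covariate 2 higher and 2 lower, median 0.11 against 0.09). E2f1 read 8.57, 9.05, 8.76 and 8.27 against 15.97, 15.3, 13.004 and 14.1 FPKM, and the inhibitor gene Cdkn2d rose by 0.70. Cdkn1a, the p21 gene, fell from 36.6, 35.3, 33.6 and 33.97 to 25.3, 29.2, 26.3 and 26.1 FPKM. Mycn fell from 5.58, 6.06, 8.76 and 6.01 to 3.05, 2.81, 3.11 and 2.86 FPKM (log2 fold change -0.92, SE 0.12, adjusted p = 0.00024). The p53 target list, to which Cdkn1a belongs, divided evenly, 7 higher and 7 lower of 30 (with the covariate 1 higher and 1 lower, median 0.03 against 0.07). This is 23.3% each way, beside 28.0% and 15.1% of all genes tested.

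Cholesterol synthesis and uptake rose in 21 of 30 members and fell in 2 (with the covariate 4 higher and 0 lower, median 0.30 against 0.34). Sqle, which forms squalene epoxide, read 2.29, 2.47, 2.39 and 4.41 against 11.9, 7.71, 7.902 and 8.88 FPKM (log2 fold change 1.39, SE 0.17, adjusted p = 0.00025). Its level in culture, 132 FPKM, stood above every mouse library of either group. The exporter Abca1 and the retention factor Insig2 fell by 0.91 and 0.52. Abca1 is also strongly expressed by macrophages, and its change beside the covariate was -0.64. Among 29 members of fatty acid and lipid metabolism 8 rose and 3 fell (with the covariate 1 higher and 0 lower, median 0.04 against 0.09), or 27.6% and 10.3%, beside 28.0% and 15.1% of all genes tested. Lpin1, a phosphatidate phosphatase, rose from 4.401, 4.14, 4.37 and 3.83 to 10.7, 9.47, 9.17 and 8.75 FPKM (log2 fold change 1.02, SE 0.07, adjusted p = 1.1e-05). The gene of lipoprotein lipase, Lpl, fell from 226, 212, 198 and 195 to 132, 148, 137 and 164 FPKM.

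Of 45 lysosome and autophagy members 15 rose and 5 fell (with the covariate 4 higher and 1 lower, median 0.12 against 0.07). These are 33.3% and 11.1%, beside 28.0% and 15.1% of all genes tested. Ulk1, the kinase that starts autophagy, rose from 24.2, 20.6, 24.9 and 21.4 to 32.6, 35.5, 34.2 and 34.6 FPKM (log2 fold change 0.57, SE 0.06, adjusted p = 0.00013). The lysosomal calcium channel Mcoln1 rose from 30.8, 30.4, 31.5 and 32.99 to 45.6, 43.7, 46.9 and 47.3 FPKM (log2 fold change 0.53, SE 0.04, adjusted p = 2.8e-05), and the autophagy receptor Sqstm1 rose by 0.49. Tfeb, a master factor of lysosomal genes, fell from 22.9, 22.9, 23.05 and 28.04 to 16.4, 16.7, 16.6 and 18.04 FPKM, and without the protease gene Ctsc 4 of 44 members fell. Ctsc, which leukocytes also express, read 2.13 to 4.68 FPKM with vehicle and 0.423 to 0.837 FPKM with YKL-05-099, so it met the mouse condition through the vehicle group alone and had to be lower. The genes of the folliculin complex, which controls TFEB and TFE3 through Rag GTPases, rose as a pair and were named after their values were seen. Flcn read 10.03, 10.9, 11.1 and 10.1 FPKM with vehicle and 38.2, 31.1, 35.6 and 23.8 FPKM with YKL-05-099 (log2 fold change 1.51, SE 0.12, adjusted p = 2.6e-05). Fnip1 read 8.2, 7.07, 7.39 and 6.38 against 24.9, 19.8, 22.99 and 16.7 FPKM (log2 fold change 1.41, SE 0.11, adjusted p = 2.6e-05). The groups were far apart for both, and both were called with the covariate as well (adjusted p = 0.010 and 0.010).

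Stress responses were uneven. In the unfolded protein response 17 of 32 members were called higher and none lower, but the groups were apart for 1 gene, and the count ran from 5 to 22 when single libraries were left out (with the covariate 0 higher and 0 lower, median 0.01 against 0.33). Edem1, a degradation factor for misfolded glycoproteins, read 14.4, 13.1, 15.7 and 19.997 against 19.3, 22.9, 24.9 and 30.3 FPKM and the groups overlapped, since vehicle replicate 4 lay above YKL-05-099 replicate 1. Herpud1 read 48.6, 39.9, 56.6 and 105 against 70.9, 135, 115 and 154 FPKM, with overlap, and its call was lost without vehicle replicate 1, 2 or 3 or YKL-05-099 replicate 2, 3 or 4 (adjusted p from 0.0576 to 0.0784). The ATF4 response and serine synthesis list had 10 rises and 3 falls among 28 members (with the covariate 2 higher and 0 lower, median 0.08 against 0.08). The shares are 35.7% and 10.7%, beside 28.0% and 15.1% of all genes tested. Ddit3, which encodes CHOP, rose from 23.5, 18.2, 23.3 and 29.3 to 48.9, 52.9, 57.5 and 51.4 FPKM (log2 fold change 1.14, SE 0.12, adjusted p = 8.1e-05). The amino acid exchanger subunit Slc3a2 rose from 117, 107, 98.6 and 90.1 to 220.2, 221, 239.6 and 170.2 FPKM (log2 fold change 1.03, SE 0.11, adjusted p = 9.6e-05). The serine synthesis enzyme Psat1 rose from 56.3, 52.5, 52.02 and 61.3 to 91.6, 85.6, 91.4 and 94.3 FPKM (log2 fold change 0.70, SE 0.06, adjusted p = 2.8e-05). Groups were apart for these 3. Heat shock genes went both ways, 9 higher and 5 lower of 27 (with the covariate 0 higher and 1 lower, median -0.02 against 0.06). These are 33.3% and 18.5%, near the 28.0% and 15.1% of all genes tested. Hsph1 read 15.4, 16.8, 18.7 and 40.4 against 45.7, 62.7, 53.1 and 49.1 FPKM, and Hspb1 read 494, 642, 591 and 728 against 379, 410.2, 391 and 349 FPKM. Hypoxia-responsive genes were lower more often than higher, 11 and 4 of 26 (with the covariate 0 higher and 0 lower, median -0.10 against -0.26). Pdk1, a kinase gene whose product inhibits pyruvate dehydrogenase, fell from 27.4, 23.02, 23.6 and 11.8 to 8.898, 8.97, 10.1 and 10.7 FPKM, and Egln3, a prolyl hydroxylase of HIF, rose from 51.5, 36.6, 39.1 and 34.5 to 68.6, 64.3, 69.4 and 71.3 FPKM. Glycolysis and pentose phosphate genes, 7 higher and 12 lower of 35 (with the covariate 1 higher and 0 lower, median -0.01 against -0.12), included Eno1, which fell by 0.63, and Taldo1, which rose by 0.35.

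Feedback inhibitors of MAPK signaling, which growth factor signaling itself induces, fell in 12 of 22 members and rose in 3 (with the covariate 2 higher and 6 lower, median -0.30 against -0.44). Dusp4, an ERK phosphatase, read 7.62, 7.34, 10.2 and 6.06 FPKM with vehicle and 1.92, 1.88, 1.23 and 0.866 FPKM with YKL-05-099 (log2 fold change -1.84, SE 0.17, adjusted p = 5.3e-05). Spred2, which blocks RAF activation, read 17.995, 19.5, 19.8 and 20.5 against 9.28, 8.28, 8.03 and 8.93 FPKM (log2 fold change -1.09, SE 0.06, adjusted p = 3.1e-06). Etv5, an ETS factor that reports on ERK, read 3.31, 3.91, 3.95 and 3.699 against 1.73, 1.09, 0.996 and 1.33 FPKM (log2 fold change -1.05, SE 0.11, adjusted p = 7.9e-05). No treated library reached the vehicle range for any of them. Against this direction, the phosphatase genes Dusp14 and Dusp10 rose, Dusp14 from 11.1, 9.89, 10.9 and 12.6 to 27.4, 30.5, 31.7 and 24.1 FPKM (log2 fold change 1.28, SE 0.09, adjusted p = 1.3e-05). Upstream, 9 of 24 receptor tyrosine kinase members rose and 9 fell (with the covariate 1 higher and 3 lower, median -0.03 against 0.09). Epha2 fell from 20.6, 17.7, 18.3 and 13.8 to 8.08, 6.42, 6.65 and 4.75 FPKM (log2 fold change -1.32, SE 0.14, adjusted p = 0.00012). Pdgfra fell from 12.5, 10.7, 11.5 and 13.8 to 6.04, 5.79, 6.399 and 5.58 FPKM (log2 fold change -0.91, SE 0.08, adjusted p = 3.4e-05). The EGF receptor gene Egfr rose from 8.69, 8.63, 9.13 and 10.5 to 14.5, 15.9, 16.8 and 15.5 FPKM (log2 fold change 0.71, SE 0.07, adjusted p = 6.5e-05), and the groups were apart for each of these. The VEGF receptor Flt1 rose from 9.65, 11.02, 11.9 and 10.8 to 20.2, 16.2, 18.4 and 18.3 FPKM (log2 fold change 0.70, SE 0.08, adjusted p = 0.00012). Of 15 secreted growth factor members 8 fell and 3 rose (with the covariate 1 higher and 3 lower, median -0.18 against -0.27), and 8 fell and 2 rose of 14 without Ereg. Pdgfa, Pdgfb and Pdgfc, ligands of the PDGF receptors, fell by 0.53, 1.57 and 0.95, Fgf18 fell by 1.34. Vegfb rose by 0.39 while Vegfa was not called (-0.27).

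TGF-beta, activin and BMP signaling fell in 20 of 39 members and rose in 5 (with the covariate 2 higher and 4 lower, median -0.19 against -0.20). The inhibitory SMAD genes Smad7 and Smad6, which these signals induce, read 30.5, 29.2, 32.6 and 28.6 against 11.4, 11.4, 12.6 and 9.58 FPKM and 28.6, 31.3, 33.5 and 40.1 against 22.2, 18.1, 19.8 and 21.8 FPKM. The repressor Skil fell by 0.73, and the BMP type I receptor Acvr1 fell from 22.9, 22.4, 22.8 and 24.1 to 14.9, 15.01, 13.4 and 15.4 FPKM (log2 fold change -0.62, SE 0.05, adjusted p = 3.3e-05). Rises were seen for the BMP antagonist Nbl1, from 70.5, 75.03, 68.9 and 74.98 to 124, 129.6, 130.3 and 115 FPKM (log2 fold change 0.78, SE 0.05, adjusted p = 9.4e-06). The activin subunit Inhba, one of the members that met the mouse condition through the treated group alone and had to differ, read 0.504, 0.482, 0.619 and 0.511 against 1.97, 2.06, 1.62 and 1.64 FPKM. Without it 4 of 38 members rose and 20 fell. Smaller rises were those of the receptors Tgfbr1 (0.27) and Acvr2b (0.45). The YAP and TEAD list, which follows cell shape and tension, fell in 13 of 30 members and rose in 1, Birc5, which is also a mitosis gene (with the covariate 0 higher and 4 lower, median -0.18 against -0.13). Ctgf read 727, 849, 934 and 656 FPKM with vehicle and 342, 354, 324 and 114 FPKM with YKL-05-099 (log2 fold change -1.59, SE 0.32, adjusted p = 0.0032), and the fourth treated library lay far below the other 3. Ajuba, a scaffold of the pathway, fell from 20.1, 19.5, 23.2 and 19.2 to 9.58, 12.5, 11.1 and 10.3 FPKM (log2 fold change -0.86, SE 0.08, adjusted p = 6.9e-05). The LATS cofactor Mob1b fell by 0.60 and Wwtr1, which encodes TAZ, by 0.44. Of 25 WNT members 9 fell and 5 rose (with the covariate 1 higher and 4 lower, median -0.16 against -0.16). Wnt9a fell from 15.4, 13.3, 13.7 and 9.79 to 5.16, 5.099, 4.81 and 4.98 FPKM (log2 fold change -1.21, SE 0.11, adjusted p = 4.9e-05). The corepressor Tle3 fell from 27.2, 26.6, 31.5 and 36.9 to 15.6, 16.9, 17.4 and 16.3 FPKM (log2 fold change -0.83, SE 0.09, adjusted p = 0.00014).

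In the Notch pathway 4 of 20 members rose and 5 fell (with the covariate 1 higher and 3 lower, median -0.06 against -0.05). Jag1, a ligand, read 15.98, 14.98, 16.6 and 12.8 FPKM with vehicle and 4.298, 4.29, 4.17 and 4.39 FPKM with YKL-05-099 (log2 fold change -1.60, SE 0.08, adjusted p = 2.0e-06). Lfng, a glycosyltransferase that tunes receptor to ligand, read 47.2, 54.2, 46.7 and 40.3 against 21.4, 20.5, 20.9 and 19.3 FPKM (log2 fold change -1.15, SE 0.08, adjusted p = 1.0e-05). The receptor Notch3 rose from 2.78, 2.31, 2.83 and 3.16 to 4.405, 5.28, 5.27 and 4.69 FPKM (log2 fold change 0.65, SE 0.09, adjusted p = 0.00038). The target gene Hey1 rose from 4.28, 3.44, 4.38 and 4.75 to 8.85, 9.58, 9.09 and 10.4 FPKM (log2 fold change 1.01, SE 0.09, adjusted p = 3.3e-05). For all 4 the groups were apart, while Rbpj, the DNA-binding partner of the receptors, fell by 0.40. Axon guidance molecules, ligands and receptors that steer cell contacts, fell in 11 of 29 members and rose in 8 (with the covariate 0 higher and 4 lower, median -0.18 against -0.11). Efnb2, an ephrin that serves as ligand of EPH receptors, fell from 54.3, 50.1, 54.7 and 47.9 to 19.3, 19.9, 18.2 and 19.5 FPKM (log2 fold change -1.38, SE 0.05, adjusted p = 4.9e-07). Sema7a, a membrane-anchored semaphorin, fell from 14.8, 14.3, 14.7 and 13.1 to 6.05, 6.497, 4.63 and 5.71 FPKM (log2 fold change -1.19, SE 0.09, adjusted p = 1.4e-05). Sema3c and Sema6d fell by 0.63 and 0.66, Ntn4 fell by 0.65, and Sema4g rose from 5.86, 4.51, 5.503 and 5.05 to 11.1, 10.3, 9.39 and 12.8 FPKM (log2 fold change 0.93, SE 0.10, adjusted p = 9.4e-05).

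**Figure D5:**
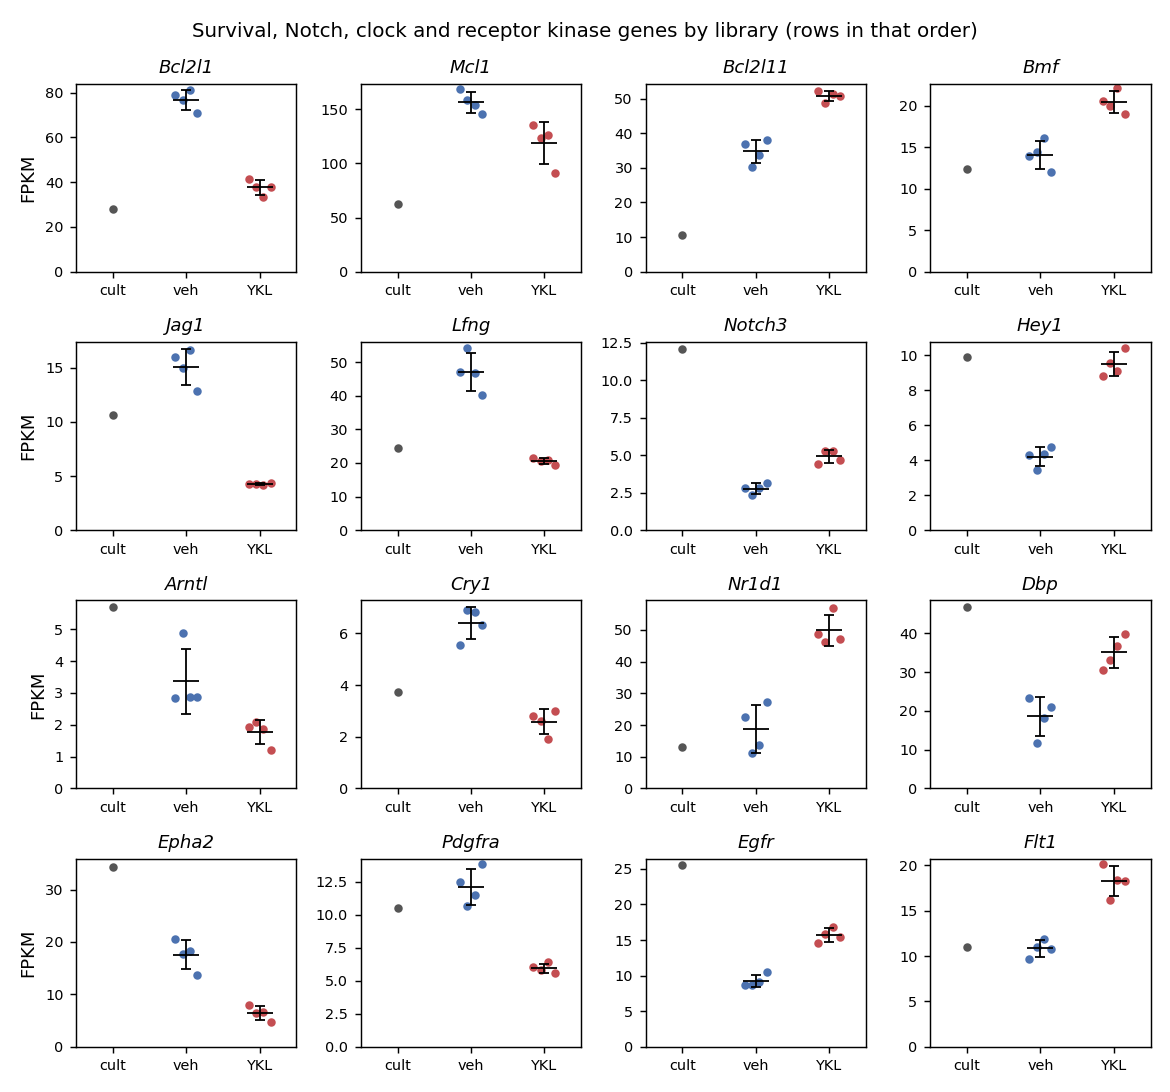
FPKM of 16 members by library, 4 each from the apoptosis, Notch, circadian clock and receptor tyrosine kinase lists, with points for 4 vehicle and 4 YKL-05-099 libraries and bars for mean ± SD. Members of the same list lie on opposite sides, such as Jag1, which is lower with YKL-05-099, and Hey1, which is higher.

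Integrin and focal adhesion genes fell in 11 of 17 members and rose in 2 (with the covariate 1 higher and 1 lower, median -0.18 against -0.19). The rises were Itga2b and Itgb3, the subunits that pair as the platelet fibrinogen receptor. Itga2b read 7.27, 7.51, 7.01 and 10.8 FPKM with vehicle, 28.3, 29.4, 29.3 and 28.5 FPKM with YKL-05-099 and 3.02 in culture (log2 fold change 1.73, SE 0.11, adjusted p = 6.9e-06). Itgb3 read 3.58, 3.55, 3.94 and 4.06 against 6.92, 6.61, 6.602 and 7.83 FPKM (log2 fold change 0.74, SE 0.07, adjusted p = 6.2e-05). Of the 6 platelet markers, Itga2b was the one member, and Pf4, Ppbp, Gp9 and Treml1 were listed at 0 in culture. Without Itga2b the platelet markers summed to 14.1, 17.2, 8.55 and 6.27 FPKM with vehicle and to 1.59, 5.12, 4.45 and 0.893 FPKM with YKL-05-099, the opposite direction to Itga2b. The falls were led by Tns1, which links integrins to actin (20.9, 27.8, 25.9 and 31.6 to 16.4, 15.2, 14.2 and 14.98 FPKM), and the adaptor Bcar1 (-0.56), with Itga3 and Itga5 at -0.47 and -0.39. Actin and SRF target genes fell in 9 of 29 and rose in 2 (with the covariate 0 higher and 0 lower, median -0.06 against -0.09). The focal adhesion proteins Zyx and Vcl fell by 0.48 and 0.40. Of matrix genes 10 of 31 fell and 7 rose (with the covariate 1 higher and 1 lower, median 0.01 against -0.06). Bgn, a small proteoglycan, fell from 189.6, 224, 209 and 187 to 93.98, 89.6, 95.5 and 106 FPKM (log2 fold change -1.06, SE 0.07, adjusted p = 8.5e-06). Efemp1, a fibulin, rose from 6.27, 5.94, 5.15 and 6.97 to 16.03, 13.99, 13.2 and 15.04 FPKM (log2 fold change 1.14, SE 0.09, adjusted p = 1.8e-05). Of 28 protease genes 8 fell and 3 rose (with the covariate 1 higher and 1 lower, median -0.06 against -0.04). Plaur, the urokinase receptor, fell from 10.6, 13.1, 10.5 and 14.5 to 4.37, 4.59, 4.14 and 2.595 FPKM (log2 fold change -1.43, SE 0.15, adjusted p = 9.2e-05). Its ligand Plau rose from 5.91, 4.597, 4.49 and 3.55 to 6.19, 7.36, 8.48 and 6.26 FPKM.

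Cytokines and chemokines fell in 11 of 18 members and rose in 3 (with the covariate 0 higher and 6 lower, median -0.27 against -0.38). Beside the chemokines above, Lif, a cytokine of the IL-6 family, fell from 11.6, 9.36, 10.4 and 10.3 to 4.31, 3.97, 4.92 and 4.06 FPKM (log2 fold change -1.11, SE 0.08, adjusted p = 1.3e-05). Its relative Clcf1 fell from 30.3, 30.2, 31.5 and 31.7 to 18.98, 18.3, 19.9 and 17.7 FPKM (log2 fold change -0.70, SE 0.05, adjusted p = 9.6e-06). Csf1, the macrophage growth factor, fell from 29.4, 30.3, 33.6 and 35.97 to 21.9, 22.4, 21.98 and 22.2 FPKM (log2 fold change -0.52, SE 0.06, adjusted p = 0.00019). The neutrophil chemokine Cxcl1 was lower with overlapping groups, at 438, 496, 254 and 620.2 FPKM with vehicle and 189, 225, 147 and 309.8 FPKM with YKL-05-099. The rises were Il33, Il18 (12.6 to 16.8 to 19.4 to 19.96 FPKM) and Ccl27a (9.22 to 11.2 to 11.7 to 13.7 FPKM). NF-kappaB signaling had 8 rises and 5 falls among 27 members (with the covariate 0 higher and 0 lower, median 0.02 against 0.04). These are 29.6% and 18.5%, near the 28.0% and 15.1% of all genes tested. Nfkbia, the inhibitor that NF-kappaB induces against itself, fell from 355, 426, 239 and 447 to 206, 241, 179 and 248 FPKM (log2 fold change -0.72, SE 0.18, adjusted p = 0.011), while the subunit Rel and the coactivator Bcl3 rose by 0.48 and 0.80. The groups overlapped for Nfkbia and Bcl3. Of 41 cytokine receptor and JAK-STAT members 11 rose and 8 fell (with the covariate 2 higher and 2 lower, median 0.03 against 0.02), or 26.8% and 19.5%, near the 28.0% and 15.1% of all genes tested. Il4ra fell from 54.8, 64.2, 54.2 and 60.6 to 33.8, 36.6, 41.1 and 31.8 FPKM and Socs5 by 0.72. Of 28 G protein-coupled receptor and RGS members 12 rose and 6 fell (with the covariate 4 higher and 2 lower, median 0.01 against 0.02). The scavenging chemokine receptor Ackr4 rose from 3.37, 3.26, 3.24 and 3.75 to 7.51, 8.32, 9.11 and 8.83 FPKM (log2 fold change 1.10, SE 0.07, adjusted p = 8.8e-06), and the prostaglandin receptor Ptger4 rose by 0.69. The nucleotide receptor P2ry2 fell from 15.6, 13.9, 12.2 and 12.1 to 5.94, 6.24, 5.73 and 5.52 FPKM (log2 fold change -1.07, SE 0.08, adjusted p = 1.6e-05). Of the 15 acute-phase and complement members, 3 rose and 4 fell (with the covariate 0 higher and 0 lower, median 0.08 against -0.01). Hp, haptoglobin, rose by 0.70 and C3 fell from 399, 509.5, 422 and 489 to 209.9, 282, 313 and 277 FPKM. The most abundant, Clu, was not called at 5524 ± 180.2 and 5438 ± 686 FPKM (mean ± SD, n = 4 each).

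Apoptosis regulators rose in 8 and fell in 5 of 30 members (with the covariate 0 higher and 1 lower, median 0.07 against 0.03). These are 26.7% and 16.7%, near the 28.0% and 15.1% of all genes tested. Bcl2l1, which encodes the survival protein BCL-XL, read 78.8, 76.5, 81.2 and 70.7 FPKM with vehicle and 41.5, 37.8, 33.2 and 37.9 FPKM with YKL-05-099 (log2 fold change -1.01, SE 0.07, adjusted p = 1.0e-05). The survival genes Mcl1, Bcl2 and Bcl2l2 fell as well, by 0.41, 0.40 and 0.59, and so did Casp8, the initiator caspase of death receptors, by 0.38. Bcl2l11, which encodes the death-promoting protein BIM, rose from 36.8, 30.4, 33.8 and 37.9 to 52.2, 48.6, 51.2 and 50.8 FPKM (log2 fold change 0.54, SE 0.07, adjusted p = 0.00023). Its relative Bmf rose from 13.9, 14.5, 16.1 and 12.02 to 20.6, 19.96, 22.2 and 19.0 FPKM (log2 fold change 0.51, SE 0.08, adjusted p = 0.00099). Birc5, a mitotic survival gene, rose by 0.88. With the covariate, Bcl2l1 alone of this list was called (log2 fold change -1.09, adjusted p = 0.0069).

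Of 17 circadian clock members 6 rose and 3 fell (with the covariate 0 higher and 2 lower, median 0.10 against 0.24). The shares are 35.3% and 17.6%, beside 28.0% and 15.1% of all genes tested. Arntl, which encodes the activator BMAL1, fell from 2.83, 4.89, 2.89 and 2.86 to 1.93, 2.08, 1.86 and 1.22 FPKM (log2 fold change -0.64, SE 0.16, adjusted p = 0.0092). Cry1, a repressor, fell from 5.54, 6.89, 6.83 and 6.32 to 2.79, 2.63, 1.93 and 3.01 FPKM (log2 fold change -1.05, SE 0.11, adjusted p = 7.6e-05). Both repressors of Arntl rose. Nr1d1 went from 22.6, 11.1, 13.9 and 27.4 to 48.7, 46.4, 57.04 and 47.3 FPKM (log2 fold change 1.45, SE 0.23, adjusted p = 0.00098). Nr1d2 went from 22.4, 12.8, 17.3 and 20.7 to 35.97, 32.1, 37.5 and 36.7 FPKM (log2 fold change 0.95, SE 0.14, adjusted p = 0.00064). The output gene Dbp rose from 23.4, 11.8, 18.2 and 20.9 to 30.6, 33.2, 36.6 and 39.9 FPKM (log2 fold change 0.91, SE 0.17, adjusted p = 0.0025), and Cry2 by 0.73. With the covariate the log2 fold changes were -0.01 for Arntl (adjusted p = 0.99), -1.25 for Cry1, 0.96 for Nr1d1, 0.56 for Nr1d2 and 0.44 for Dbp, and of these 5 Cry1 remained called. Clock transcripts change over the day, and the hour of collection is not stated in any source used here.

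Housekeeping systems differed among themselves. Of 68 cytosolic ribosomal protein genes 13 fell and none rose (with the covariate 0 higher and 0 lower, median -0.05 against -0.11). The falls are 19.1%, beside 15.1% of all genes tested, and under median-of-ratios scaling 36 fell. Ribosome biogenesis fell in 27 of 56 members and rose in 3 (with the covariate 0 higher and 3 lower, median -0.16 against -0.15). The helicase Ddx21 fell from 20.2, 20.5, 20.6 and 21.6 to 12.6, 13.7, 13.5 and 13.7 FPKM (log2 fold change -0.60, SE 0.05, adjusted p = 1.9e-05). The processing factors Wdr43 and Utp18 fell by 0.39 and 0.40. Of 61 nuclear-encoded respiratory chain genes 12 rose and none fell (with the covariate 1 higher and 0 lower, median 0.05 against 0.06). The rises are 19.7%, below the 28.0% of all genes tested, and the count became 5 rises and 4 falls under median-of-ratios scaling. Ndufc2, a complex I subunit, was the largest of them at 149 to 174 against 215 to 245 FPKM. Of 40 proteasome genes 1 rose and 3 fell (with the covariate 0 higher and 0 lower, median 0.00 against 0.00), and Psme3 fell by 0.24. Of 52 splicing factors 15 rose and 7 fell (with the covariate 0 higher and 1 lower, median 0.01 against 0.06), or 28.8% and 13.5%, near the 28.0% and 15.1% of all genes tested. Clk1, a kinase of splicing factors, rose from 79.5, 65.6, 88.5 and 59.7 to 115, 108, 141 and 103 FPKM. Zinc finger genes with the prefix Zfp rose in 104 and fell in 24 of 285 members (with the covariate 2 higher and 1 lower, median 0.09 against 0.15), which median-of-ratios scaling turned to 81 and 34. In 2089 members the 95% interval of the log2 fold change lay within 0.2 of 0. Abundant examples were Tmbim6 (359 ± 8.26 and 363 ± 1.296 FPKM, mean ± SD, n = 4 each), Prkar1a (240.4 ± 4.09 and 250.5 ± 6.86) and Eif4g2 (264 ± 9.75 and 268 ± 1.31).

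Identity genes of BeCon cells fell in 6 of 15 members and rose in 2 (with the covariate 1 higher and 1 lower, median -0.10 against -0.13). Emx2, a homeobox gene of the reproductive tract, read 13.8, 15.3, 15.02 and 16.2 FPKM with vehicle and 8.56, 7.93, 6.78 and 6.89 FPKM with YKL-05-099 (log2 fold change -0.92, SE 0.08, adjusted p = 3.3e-05). Bnc1, a basonuclin factor of mesothelium, read 20.8, 18.4, 20.8 and 18.3 against 13.6, 12.9, 12.7 and 11.8 FPKM (log2 fold change -0.58, SE 0.06, adjusted p = 0.00011). Gata6 read 220.1, 221, 215 and 202 against 153, 139, 141 and 119.7 FPKM (log2 fold change -0.64, SE 0.07, adjusted p = 0.00012). The treated libraries were lower in all 3 without overlap. Gata4 and Krt19 fell by 0.57 and 0.36, and Krt18 rose from 166, 177, 172 and 171 to 241, 249, 251 and 249 FPKM (log2 fold change 0.53, SE 0.04, adjusted p = 1.4e-05). Upk3b, Upk1b, Msln and Krt8 were not called (0.10, 0.17, -0.16 and 0.01), with 95% intervals of 0.00 to 0.20, -0.01 to 0.35, -0.39 to 0.06 and -0.22 to 0.24. Wt1 differed by -0.12, a call lost without any 1 of the vehicle libraries or of YKL-05-099 replicates 1, 2 and 4 (adjusted p from 0.0503 to 0.0978).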

How the data were processed

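Per the file headers, the authors deposited FPKM for each gene and library together with a status. Named in the submitters' processing notes are bcl2fastq 2.19 and the build GRCm38. The aligner and quantification program were not given in the sources used here. Libraries were made with a poly(A)-selecting, strand-marking kit, per the labels' protocols. Of 48302 rows, 65 with a repeated gene identifier were left out, and 7 genes with a failed estimate, whose value is given as 0. FPKM sums ran from 453169 to 482851 per library. Depth was estimated from the lowest values at 23000000 to 35000000 fragments. Whole reads could not be recovered, since only 17.5% to 22.7% of low values were whole within 0.05, so no count test was used.

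The deposited FPKM were analysed as log2(FPKM + 1) with limma 3.58.1 in R 4.3.3, with the mean-variance trend, on the genes that reached 1 FPKM in 4 or more of the 8 mouse libraries. The two-sided p-values received a Benjamini-Hochberg adjustment over all 11788 genes tested and were called under 0.05. Fold changes are on this scale, which understates low genes. "Rose" and "fell" are used for called genes. Tables and plots used Python 3.11.15, pandas 2.3.3, numpy 2.4.6 and matplotlib 3.10.9. On simulated data with 11788 genes, the fit recovered 97% of the 100 genes given a change of 1 log2 unit, 45% of the 100 given 0.3, and called 11 of 11588 unchanged genes. Each simulated gene was drawn independently, and only genes above a set level were changed. Far fewer genes were changed than the 43.2% called in the data, and shifts shared by many genes were not simulated. The rates therefore need not hold for these data.

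The members, the 59 gene lists and the rules were chosen with earlier results of these data known. Named were the 20 largest rises and falls, the 10 largest differences in FPKM each way, up to 4 called members with the smallest p of each list, all members of lists of at most 15, the 3 Sik genes and 10 abundant stable genes; 55 further genes in the text were chosen after their values were seen (Abca1, Acvr2b, Arntl, Aurkb, Bcl2, Bcl2l2, Bcl3, Bmf, Brip1, Btg2, Bub3, Ccl27a, Ccna2, Cdc25a, Csf1, Dbp, Dusp10, Etv5, Fbxw7, Flcn, Fnip1, H2-M3, Herpud1, Id1, Ifit2, Il18, Insig2, Isg15, Itga3, Itga5, Lgals3bp, Mcl1, Mki67, Mre11a, Nfkbia, Ntn4, Orc2, Pck2, Plau, Pttg1, Rbpj, Rel, Rrm1, Samhd1, Sema4g, Skil, Smad6, Sqle, Sqstm1, Tfeb, Tgfbr1, Top2a, Tyms, Xaf1, Xrcc5). Some genes that the rule names are not reported here. Lists are described by counts and medians, with no test of a list. Alternatives were other pseudocounts, filters, scalings, member rules, weights, a leukocyte covariate, a replicate block and leaving out each library. Replicate numbers do not pair the libraries: correlations of same-numbered libraries' deviations were -0.018, 0.133, -0.047 and 0.172.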

Additional observations from a re-analysis of the deposited data

Results flagged for a closer look

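In 28 of 472 combinations of a named gene and a group, 1 library stood far from the other 3, by a gap above Dixon's 95% critical value for 4 values. Chance gives this in about 1 of 20 groups (5%). Vehicle replicate 4 was the library that stood apart in 15 of the 28.

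In vehicle replicate 4, the FPKM that stood apart were those of Btg2 (484), Crem (24.9), Ereg (0.474), Fbxw7 (5017, where the others read 5.78 to 6.19), Hsph1 (40.4), Il33 (12.3), Itga2b (10.8), Ly6e (349), Sod3 (36.9), Sqle (4.41), Stk11 (49.4) and Tfeb (28.0) on the high side, and of Msln (29.8), Rrm1 (60.7) and Sprr1a (2.86) on the low side. For Crem, Ereg, Hsph1, Il33, Itga2b, Ly6e, Rrm1, Sod3, Sqle and Stk11 its value lay between the other vehicle libraries and the treated libraries. For Btg2 and Tfeb it lay on the side away from the treated libraries, and for Fbxw7 and Msln it lay within the treated range. The summed mast cell markers of the same library were 0.143 FPKM, where the others lay between 0 and 0.0242.

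Among other vehicle libraries, Arntl (4.89), Pde4a (3.35) and Rfc2 (31.3) stood apart in replicate 2, Mycn (8.76) in replicate 3 and Eif4g2 (279) in replicate 1. Among the YKL-05-099 libraries, Irf9 (18.7), Lgals3bp (70.9), Ly6e (406) and Tmbim6 (361) stood apart in replicate 1, Ereg (3.43) in replicate 2, Nnmt (234) in replicate 3, and Btg2 (162) and Ctgf (114) in replicate 4. The treated library with low Ctgf and Btg2 is the one that carried much of the fall of Btg2.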

How the results depend on the processing

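Counts of calls depended most on the leukocyte covariate, under which 267 members were higher and 186 lower, with 100 called at 1 log2 unit or more, and 438 of the 453 calls were shared with the 4718 made without it. Since the covariate separates the groups and raises the median standard error from 0.067 to 0.133, the fit has less power by construction. The number of members called at 1 log2 unit or more, 153, became 264 with a pseudocount of 0.1, which enlarges the changes of low genes, and 82 over the 9589 members whose culture level was at least 0.5 of the higher mouse mean. Median-of-ratios scaling and quantile normalization gave 2333 higher and 2252 lower, and 2355 higher and 2190 lower (51.8% higher), since both set the median change of the genes tested, 0.054 as deposited, to about 0. Leaving out single libraries gave 2620 to 3280 members higher, 1262 to 1841 lower, 128 to 192 at 1 log2 unit or more, and 8 to 10 marker lists lower in every YKL-05-099 library. With the replicate block, 2973 members were higher, 1485 lower and 154 at 1 log2 unit or more. The replicate numbers do not pair the libraries.

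No called member was called in the other direction in any of these fits. Of the 236 named genes, with the covariate 118 were no longer called, without the filter on low values 11, with the replicate block 3 (Orc2, Samhd1 and Wt1), with quantile normalization 2 and with TPM scaling 1, and leaving out a library lost between 1 and 5. Calls were gained for 2 with quantile normalization and for 1 each with array weights (H2-M3) and the block (Hdac4), and for 4 without vehicle replicate 4 and 1 each without vehicle replicates 1 and 3 and YKL-05-099 replicate 2. Apart from the construction of these fits, the cause was not tested. Pairs of close copies such as Apol9a and Apol9b depend on how reads were assigned, which is not given in the sources used here. Depth limits genes near 1 FPKM, where the pseudocount shrinks the change.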

Other observations

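Other members that were called higher are given here. Sgk1, a kinase induced by glucocorticoids, read 106, 97.8, 102 and 81.2 FPKM with vehicle and 235, 237, 206 and 197 FPKM with YKL-05-099 (log2 fold change 1.17, SE 0.09, adjusted p = 1.9e-05). Nnmt, which methylates nicotinamide, read 74.98, 81.96, 69.3 and 108 against 199.8, 203, 234 and 205 FPKM (log2 fold change 1.34, SE 0.12, adjusted p = 4.3e-05). Fgf5 read 1.66, 1.13, 1.16 and 0.655 against 4.12, 6.11, 6.09 and 4.44 FPKM, and its lowest treated library exceeded the highest vehicle library. Rgcc, a cell cycle regulator gene, read 4.04, 3.78, 3.22 and 2.43 against 12.5, 16.2, 13.5 and 9.34 FPKM, and Ly6e, an interferon-inducible surface protein gene, read 253, 264, 252 and 349 against 406, 459, 459 and 458 FPKM. Sod3, the extracellular superoxide dismutase gene, read 23.1, 21.5, 20.4 and 36.9 against 51.7, 45.6, 44.7 and 51.7 FPKM.

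Fbxw7, which encodes a substrate receptor of an SCF ubiquitin ligase, split the libraries of both groups. It read 6.19, 5.89, 5.78 and 5017 FPKM with vehicle, 4247, 7.01, 6702 and 3950.5 FPKM with YKL-05-099 and 5.54 in culture, so 4 mouse libraries, 1 with vehicle and 3 with YKL-05-099, stood far above the rest. It was not called (adjusted p = 0.16), and it was chosen after its values were seen. How the quantification could affect this value was not tested.

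Genes that cultured cells did not express at 1 FPKM fell outside the comparison. Among them were Has1, Nr4a2, Oas2, Nr4a3, Camkk1 and Rgs2, with the largest rises, and hemoglobin, immunoglobulin and macrophage genes such as Hbb-bs, Igkc, Lyz2 and C1qa, with the largest falls. Of these 875 genes, 180 were called higher and 191 lower, and 31 and 68 by at least 1 log2 unit.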
